A study of Mus musculus with 4 samples.

Results

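The genes described here are 35 genes that T cells use to read antigen, to be restrained or helped, to settle into memory, and to acquire a regulatory fate. They were chosen by name and make up 35 of the 55401 genes in the table. All 35 had reads in every library, from 152 to 6880 per gene, and all 35 were among the 19806 genes that passed the expression filter and were tested.

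The libraries came from leukocytes sorted by CD45 from the dura mater, the outer layer of the meninges. The mice were wild-type C57BL/6J males that received 2 μl of an adeno-associated virus (AAV, serotype 9) into the cisterna magna at 4 wk of age. The AAV-mVEGF-C group got a vector for full-length mouse VEGF-C, a growth factor of lymphatic vessels. The AAV-CTRL group got a vector for soluble VEGFR-3 ectodomains that cannot bind VEGF-C, fused to an immunoglobulin tail, so both groups had received virus and a secreted protein. Each group had 2 libraries, each made from a pool of 10 to 12 mice, and the time between injection and dural collection is not stated for them. The replicates are therefore pools, and the p-values measure the spread between pools only.

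A T cell recognizes a peptide through its receptor, which signals through the CD3 chains and CD247 to the kinases LCK and ZAP70 and the adaptor LAT. Costimulatory receptors such as CD28 and ICOS add to that signal, and receptors such as CTLA-4 and PD-1 restrain it. Regulatory T cells are defined by the transcription factor FOXP3 and hold other leukocytes in check. The dura holds T cells along its venous sinuses, and they make up a minority of its CD45+ cells.

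AAV-CTRL 1 stood apart from the other libraries. It had the most reads assigned to genes (46409685, against 32520649 to 38051943 in the others) but the fewest detected genes (20990, against 29221 to 37512). When each library was left out in turn, the log2 fold change (AAV-mVEGF-C over AAV-CTRL) of 27 of the 35 genes turned in sign or moved by over 1.5 times at least once, and that of *Cd2*, *Cd247*, *Cd3g*, *Satb1*, *Tcf7*, *Tigit*, *Tox*, and *Zap70* did not in any of these fits. Levels are in CPM, reads per 1000000 after scaling of library sizes by TMM, unless TPM is named, the deposited values scaled for gene length and to the same total in each library. *Ptprc*, which encodes CD45, had 1151 and 946 CPM in AAV-CTRL 1 and 2 and 1087 and 1039 CPM in AAV-mVEGF-C 1 and 2.

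Most of the T cell genes were somewhat higher after AAV-mVEGF-C, and none of the 35 passed the test across all genes. The log2 fold change was above 0 in 28 members and below 0 in 7, and the median was 0.24, against 0.00 over all tested genes, of which 50.4% were above 0. Without AAV-CTRL 2 the median was 0.16, against 0.13 over all genes, with 23 members above 0, and in TPM it was 0.13, against -0.08, with 24 above 0. The quasi-likelihood test of edgeR, adjusted by Benjamini-Hochberg over all tested genes, called 0 of the 35 members (adjusted p = 0.999 for each) and 0.0% of all genes. DESeq2, which called 0.389% of all genes, and limma-voom also called 0 members, with lowest adjusted p-values of 0.599 and 0.884. At an unadjusted p under 0.05 there were 4 members (11.4%), against 2.64% of all tested genes. These were *Cd3g*, *Cd247*, and *Ctla4*, which were higher, and *Cd2*, which was lower. DESeq2 had 4 members at that level (2.1% of all genes) and limma-voom had 6 (3.44%). In TPM there was 1 (2.86%, against 4.55% of all genes). There were 11 without AAV-CTRL 1 (31.4%, against 7.75%), 8 without AAV-CTRL 2 (22.9%, against 28.9%), 0 without AAV-mVEGF-C 1 (against 0.795%), and 1 without AAV-mVEGF-C 2 (2.86%, against 2.29%). The median standard error of the members' log2 fold change was 0.20, and the largest difference, that of *Ctla4*, was 1.93-fold.

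In 16 members (45.7%) both AAV-mVEGF-C libraries lay above both AAV-CTRL libraries in CPM, against 16.8% of all tested genes. In 5 members (14.3%) both lay below, against 15.2% of all genes, and in the other 14 the groups overlapped. In TPM the counts were 11 higher (31.4%, against 8.92% of all genes) and 5 lower (14.3%, against 28.5%). The same 9 members were higher in both units: *Cd3g*, *Cd247*, *Lat*, *Themis*, *Icos*, *Ctla4*, *Tigit*, *Foxp3*, and *Tcf7*. The 4 that were lower in both were *Skap1*, *Cd2*, *Lag3*, and *Cd69*. In bulk RNA, more T cells and more RNA of a gene per T cell cannot be told apart.

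**Figure D1:**
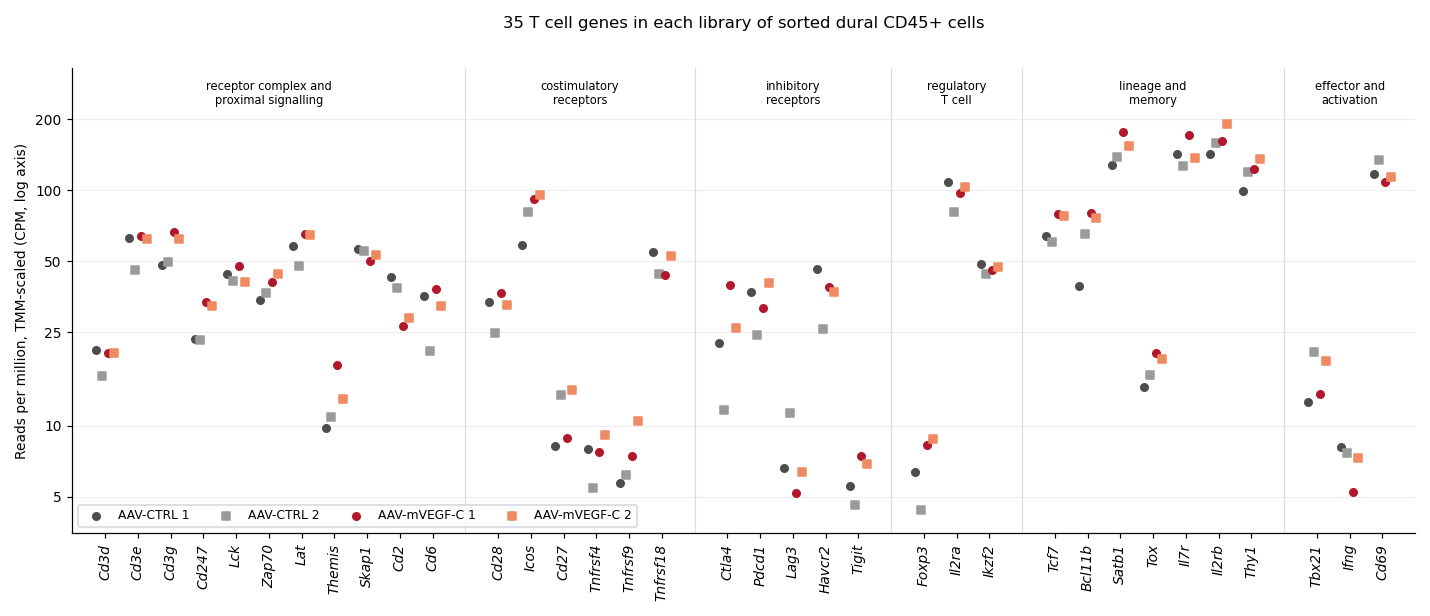
Reads per 1000000 (CPM, log axis) of the 35 T cell genes, grouped by role, with 1 point per library (circle and square: the 1st and 2nd pool of each group, gray for AAV-CTRL and red or orange for AAV-mVEGF-C). The red and orange points lie above both gray points in 16 genes and below both in 5, and the gray points of *Ctla4*, *Havcr2*, *Lag3*, *Cd6*, and *Bcl11b* are the farthest apart.

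Pools of a group were closer for these genes than for the median tested gene, but the comparison was not matched for read depth. Each member had at least 152 reads in every library, while a tested gene outside the members, *Dapl1*, had 9 in AAV-mVEGF-C 1. The higher AAV-CTRL pool exceeded the lower by a median of 1.20-fold over the members, against 1.40-fold over all tested genes. In AAV-mVEGF-C the medians were 1.09-fold and 1.19-fold. The AAV-CTRL pools differed by over 1.5-fold in 8 members (22.9%, against 43.6% of all tested genes), *Ctla4*, *Havcr2*, *Lag3*, *Cd6*, *Bcl11b*, *Cd27*, *Tbx21*, and *Pdcd1*, and the AAV-mVEGF-C pools in 2, *Ctla4* and *Cd27* (5.71%, against 23.98%). Of the 5 inhibitory receptors, 4 were among those 8.

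Per unit of length, *Thy1*, which encodes a surface glycoprotein of T cells, had the highest level of the 35 (68.8 to 77.2 TPM over the 4 libraries). *Cd69*, an early activation marker that also holds T cells in tissue, came next (42.7 to 60.6 TPM), and its range overlapped that of *Cd3g* (41.5 to 52.2 TPM), *Il2rb*, and *Il7r*. The lowest levels were those of *Foxp3* (1.18 to 2.15 TPM), *Lag3* (1.73 to 4.28 TPM), and *Themis* (1.73 to 3.65 TPM), whose ranges overlapped. Among the receptor chains, *Cd3e* (31.7 to 39.8 TPM) lay below *Cd3g* with no overlap, *Cd247* followed at 11.8 to 16.1 TPM, and *Cd3d* was lowest at 8.71 to 9.96 TPM, although the chains serve in one complex.

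The start regions of the receptor chain genes, of *Ctla4*, and of *Foxp3* are shown because the former encode chains of one complex and the latter are the 2 members with the largest log2 fold changes. Each window is a RefSeq promoter of build GRCm38.p6, with 250 bases before and 50 after the annotated start, written 5′ to 3′ on the gene's strand. The windows are chr9:44981536-44981835 (*Cd3d*, plus strand), chr9:45009562-45009861 (*Cd3e*, minus), chr9:44980382-44980681 (*Cd3g*, minus), chr1:165788431-165788730 (*Cd247*, plus), chr1:60908775-60909074 (*Ctla4*, plus), and chrX:7579426-7579725 (*Foxp3*, plus). Capitals mark matches on either strand to AGGAAG (a core recognized by ETS factors), TGTGGT (RUNX factors), or CTTTGA (TCF and LEF factors, the family of the member *Tcf7*).
Cd3d: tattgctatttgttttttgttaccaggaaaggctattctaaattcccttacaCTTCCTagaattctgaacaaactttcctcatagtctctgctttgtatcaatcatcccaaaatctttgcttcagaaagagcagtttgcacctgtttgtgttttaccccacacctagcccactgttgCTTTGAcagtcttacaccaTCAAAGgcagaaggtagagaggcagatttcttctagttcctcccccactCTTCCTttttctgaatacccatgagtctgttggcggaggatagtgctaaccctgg
Cd3e: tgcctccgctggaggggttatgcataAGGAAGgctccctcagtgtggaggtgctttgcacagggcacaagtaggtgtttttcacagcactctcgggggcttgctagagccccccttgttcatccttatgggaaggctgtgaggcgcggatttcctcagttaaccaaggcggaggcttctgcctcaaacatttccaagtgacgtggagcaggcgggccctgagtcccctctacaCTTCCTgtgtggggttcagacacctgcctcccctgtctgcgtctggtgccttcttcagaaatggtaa
Cd3g: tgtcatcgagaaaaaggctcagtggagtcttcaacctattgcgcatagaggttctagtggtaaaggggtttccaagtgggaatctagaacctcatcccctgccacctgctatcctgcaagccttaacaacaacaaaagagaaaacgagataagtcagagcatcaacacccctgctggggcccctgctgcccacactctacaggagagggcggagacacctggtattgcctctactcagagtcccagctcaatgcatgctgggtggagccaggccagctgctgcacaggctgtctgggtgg
Cd247: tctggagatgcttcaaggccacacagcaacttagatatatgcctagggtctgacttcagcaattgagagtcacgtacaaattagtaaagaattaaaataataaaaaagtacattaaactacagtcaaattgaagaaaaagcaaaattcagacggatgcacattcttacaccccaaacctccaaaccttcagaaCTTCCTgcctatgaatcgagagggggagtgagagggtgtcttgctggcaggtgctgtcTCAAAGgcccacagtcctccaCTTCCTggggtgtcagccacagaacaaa
Ctla4: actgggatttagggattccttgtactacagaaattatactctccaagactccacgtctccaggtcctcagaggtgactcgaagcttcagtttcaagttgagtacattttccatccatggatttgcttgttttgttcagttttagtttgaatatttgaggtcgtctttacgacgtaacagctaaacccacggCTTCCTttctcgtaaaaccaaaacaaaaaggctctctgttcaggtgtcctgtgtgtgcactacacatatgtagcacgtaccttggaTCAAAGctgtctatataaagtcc
Foxp3: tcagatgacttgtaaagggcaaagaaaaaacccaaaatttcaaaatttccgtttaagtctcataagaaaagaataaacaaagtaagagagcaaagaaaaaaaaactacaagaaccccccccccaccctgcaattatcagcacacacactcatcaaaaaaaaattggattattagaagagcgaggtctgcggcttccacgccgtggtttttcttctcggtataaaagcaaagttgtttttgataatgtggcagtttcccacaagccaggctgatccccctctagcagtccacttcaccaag

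AGGAAG occurred 2 times each in the windows of *Cd3d*, *Cd3e*, and *Cd247* and 1 time in that of *Ctla4*. CTTTGA occurred 2 times in the *Cd3d* window and 1 time each in those of *Cd247* and *Ctla4*. The windows of *Cd3g* and *Foxp3* held none of the 3 motifs. Promoter entries were found for 24 of the 35 members, 35 windows in all. AGGAAG was in 19 of these (54.3%) and in 35.4% of all 32817 promoters of the same length. TGTGGT was in 7 (20.0%, against 16.8%) and CTTTGA in 7 (20.0%, against 16.0%). A match is a description of the letters and not evidence of binding.

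Among the 11 genes of the receptor complex and proximal signaling, *Cd3g*, *Cd247*, and *Cd2* had an unadjusted p under 0.05, and none passed the adjusted threshold. Of these genes, 9 had a log2 fold change above 0 and 2 below, with a median of 0.26. That median was 0.02 without AAV-CTRL 2 (7 above 0), 0.35 without AAV-CTRL 1, and 0.13 in TPM (7 above 0). Over all genes the median was 0.13 without AAV-CTRL 2, 0.00 without AAV-CTRL 1, and -0.08 in TPM. The medians of the groups and lists below have the same reference. *Cd3g*, the gamma chain of CD3 (ENSMUSG00000002033.14; GRCm38 chromosome 9, 44969572 to 44980431, minus strand), had 48.3 and 49.7 CPM in AAV-CTRL 1 and 2 and 66.2 and 61.9 CPM in AAV-mVEGF-C 1 and 2. Both pools after AAV-mVEGF-C lay above both controls. Its log2 fold change was 0.39 (standard error 0.15; unadjusted p = 0.044 and adjusted p = 0.999, quasi-likelihood test of edgeR, adjusted by Benjamini-Hochberg, as for the other genes).

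*Cd247*, the zeta chain that carries most of the signaling motifs of the receptor (ENSMUSG00000005763.15; chromosome 1, 165788681 to 165877277, plus strand), had 23.4 and 23.2 CPM in the AAV-CTRL pools and 33.5 and 32.2 CPM in the AAV-mVEGF-C pools. The pools within each group nearly coincided, and the groups were apart. Its log2 fold change was 0.49 (standard error 0.17; unadjusted p = 0.0257) and ranged from 0.47 to 0.53 with any 1 library left out. Annotated exons of other genes overlap those of *Cd247* on either strand, and its reads were in part divided between genes.

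The remaining CD3 chains did not separate the groups in CPM, and *Cd3e* did in TPM, where both treated pools were higher. *Cd3e*, the epsilon chain that every CD3 dimer contains (ENSMUSG00000032093.7; chromosome 9, 44998740 to 45009627, minus strand), had 62.4 and 45.9 CPM in the AAV-CTRL pools and 63.7 and 62.2 CPM in the AAV-mVEGF-C pools (log2 fold change 0.22, standard error 0.20, and 0.02 without AAV-CTRL 2 or 0.44 without AAV-CTRL 1). *Cd3d*, the delta chain (ENSMUSG00000032094.8; chromosome 9, 44981786 to 44987339, plus strand), had 21.02 and 16.3 CPM in the AAV-CTRL pools and 20.5 and 20.4 CPM in the AAV-mVEGF-C pools (log2 fold change 0.13, standard error 0.21). For both, AAV-CTRL 1 was level with the treated pools and AAV-CTRL 2 was below. *Cd3d* lay below 0 in TPM (-0.038) and without AAV-CTRL 2 (-0.034). *Cd3g* and *Cd3d* are neighbors on opposite strands, 1.36 kb apart, and *Cd3e* lies 11.4 kb beyond *Cd3d*. The 3 CD3 genes together were at 132 and 112 CPM in AAV-CTRL and at 150 and 144 CPM in AAV-mVEGF-C, a mean of 122 ± 14.0 (SD, n = 2 pools) against 147 ± 4.21, which is 1.21-fold. In TPM their sum was 85.0 and 86.6 in AAV-CTRL and 101 and 98.5 in AAV-mVEGF-C. With 2 pools against 2, an exact permutation test cannot give a p below 0.333.

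Downstream of the receptor, *Lck*, the kinase that phosphorylates the CD3 and zeta chains, had 43.9 and 41.0 CPM in the AAV-CTRL pools and 47.8 and 40.8 CPM in the AAV-mVEGF-C pools (log2 fold change 0.06, standard error 0.17, and -0.17 in TPM). The groups overlapped. *Zap70*, the kinase recruited to the phosphorylated zeta chain, had 34.2 and 36.6 CPM in the AAV-CTRL pools and 40.7 and 43.9 CPM in the AAV-mVEGF-C pools (log2 fold change 0.26, standard error 0.16; unadjusted p = 0.167). Both treated pools were above both controls in CPM, but not in TPM. *Lat*, the membrane adaptor that ZAP70 phosphorylates, had a log2 fold change of 0.29 (standard error 0.17) and *Themis*, a regulator of receptor signaling in thymocytes, one of 0.59 (standard error 0.26), each without overlap in either unit. *Skap1*, an adaptor that links the receptor to integrins, had a log2 fold change of -0.11 (standard error 0.15). *Cd6*, a surface receptor for ALCAM, was at 20.7 CPM in AAV-CTRL 2 and between 32.4 and 37.9 CPM in the other 3 libraries.

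*Cd2* had the lowest log2 fold change of this group. It encodes an adhesion receptor for CD48 that NK cells and mouse B cells also carry (ENSMUSG00000027863.8; chromosome 3, 101275899 to 101287939, minus strand). *Cd2* had 42.8 and 38.6 CPM in the AAV-CTRL pools and 26.4 and 28.8 CPM in the AAV-mVEGF-C pools. Both treated pools lay below both controls, in CPM and in TPM. Its log2 fold change was -0.56 (standard error 0.17; unadjusted p = 0.0166) and ranged from -0.62 to -0.49 with any 1 library left out, with an adjusted p of 0.0453 without AAV-CTRL 2 (9.19% of all genes called). Its ligand *Cd48* had 45.4 and 43.2 CPM in the AAV-CTRL pools and 31.8 and 40.1 CPM in the AAV-mVEGF-C pools (log2 fold change -0.30, standard error 0.18).

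**Figure D2:**
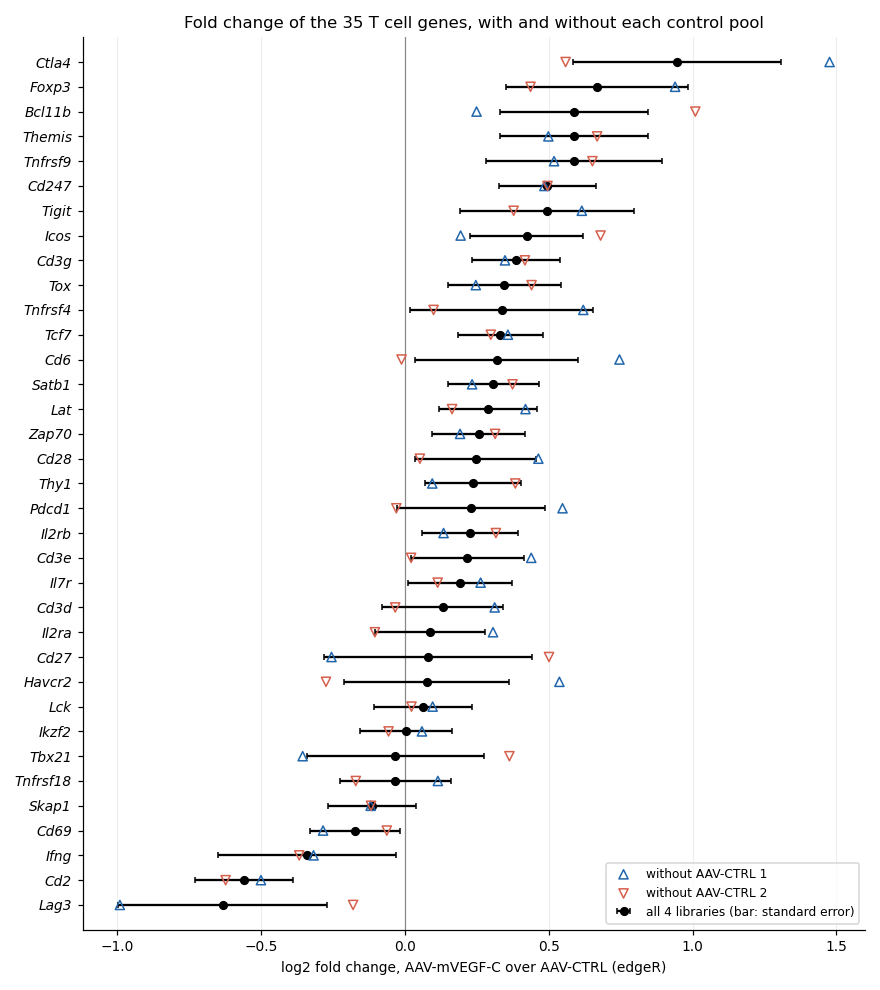
log2 fold change of each of the 35 T cell genes, AAV-mVEGF-C over AAV-CTRL (black, with its standard error), and the same without AAV-CTRL 1 (blue triangles) or without AAV-CTRL 2 (red triangles). The triangles of *Cd3g*, *Cd247*, *Cd2*, and *Tcf7* lie close to the black points, those of *Ctla4* lie at 1.48 and 0.56, and those of *Havcr2*, *Cd27*, *Tbx21*, and *Cd6* fall on both sides of 0.

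Of the 6 costimulatory receptors, 5 had a log2 fold change above 0 (median 0.29, and 0.09 in TPM). *Icos* and *Tnfrsf9* were higher in both treated pools in CPM (33.3%, against 16.8% of all tested genes). In TPM only *Icos* was, against 8.92% of all genes. *Icos*, which supports helper and regulatory T cells, had 58.7 and 80.8 CPM in the AAV-CTRL pools and 91.5 and 95.4 CPM in the AAV-mVEGF-C pools. The treated pools were level and above both controls, and AAV-CTRL 1 was the lowest. The log2 fold change was 0.42 (standard error 0.20; unadjusted p = 0.074). Without AAV-CTRL 1 it was 0.19 (adjusted p = 0.999), and without AAV-CTRL 2 it was 0.68 (adjusted p = 0.0277, with 9.19% of all genes called in that fit). *Tnfrsf9* (4-1BB), which marks activated T cells, had a log2 fold change of 0.59 (standard error 0.31), and *Tnfrsf4* (OX40) one of 0.34 (standard error 0.32, and 0.10 without AAV-CTRL 2). *Cd28*, the main costimulatory receptor of naive T cells, was at 0.25 (standard error 0.21, and 0.05 without AAV-CTRL 2). *Cd27*, a receptor for CD70, and *Tnfrsf18* (GITR), which regulatory T cells carry at high levels, were at 0.08 (standard error 0.36) and -0.03 (standard error 0.19), and the groups overlapped for both.

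The 5 inhibitory receptors included both the highest and the lowest log2 fold change of the 35 genes, and 4 of them were above 0 (median 0.23). Without AAV-CTRL 1 the median was 0.55, and without AAV-CTRL 2 it was -0.03, with 2 above 0. In TPM it was 0.10, with 3 above 0. *Ctla4*, which competes with CD28 for CD80 and CD86 and is abundant in regulatory T cells (ENSMUSG00000026011.13; chromosome 1, 60887000 to 60915832, plus strand), had 22.4 and 11.6 CPM in AAV-CTRL 1 and 2 and 39.4 and 26.1 CPM in AAV-mVEGF-C 1 and 2. Both treated pools were above both controls, although the pools within each group were also far apart. The log2 fold change was 0.95 (standard error 0.36; unadjusted p = 0.0396 in edgeR's quasi-likelihood test and 0.007 in DESeq2). It was 1.48 without AAV-CTRL 1 (adjusted p = 0.000305, with 1.85% of all genes called), 0.93 without a filter on low counts (adjusted p = 0.0199, with 0.659% called), and 0.56 without AAV-CTRL 2 (adjusted p = 0.133). In such a fit the lone control library is assumed to vary as the treated pools do. *Ctla4* lies between *Cd28* and *Icos* on chromosome 1.

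*Lag3*, a receptor for MHC class II, was at the lower end. It had 6.60 and 11.4 CPM in the AAV-CTRL pools and 5.17 and 6.40 CPM in the AAV-mVEGF-C pools (log2 fold change -0.63, standard error 0.36; unadjusted p = 0.131). The treated pools were just below AAV-CTRL 1, and without AAV-CTRL 2 the log2 fold change was -0.18. *Pdcd1*, which encodes PD-1, had 37.0 and 24.4 CPM in the AAV-CTRL pools and 31.7 and 40.4 CPM in the AAV-mVEGF-C pools (log2 fold change 0.23, standard error 0.26). *Havcr2*, which encodes TIM-3 and is also expressed by myeloid cells, had 46.1 and 25.8 CPM in the AAV-CTRL pools and 38.9 and 36.9 CPM in the AAV-mVEGF-C pools (log2 fold change 0.08, standard error 0.29). The groups overlapped for both. *Tigit*, a receptor for PVR, was low in every library (4.62 to 7.42 CPM), with both treated pools above both controls (log2 fold change 0.49, standard error 0.30).

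Of the 3 regulatory genes (median log2 fold change 0.09, 0.31 without AAV-CTRL 1, -0.06 without AAV-CTRL 2, and 0.0055 in TPM), *Foxp3* alone separated the groups (33.3% of them in CPM). Over all tested genes, 16.8% were higher and 15.2% lower without overlap in CPM, and 8.92% and 28.5% in TPM. *Foxp3* (ENSMUSG00000039521.13; chromosome X, 7573644 to 7595245, plus strand) had 6.37 and 4.42 CPM in the AAV-CTRL pools and 8.32 and 8.83 CPM in the AAV-mVEGF-C pools. In TPM it was at 1.18 and 1.21 in AAV-CTRL and at 1.88 and 2.15 in AAV-mVEGF-C. The treated pools were above both controls in both units. The log2 fold change was 0.67 (standard error 0.32; unadjusted p = 0.0792), from 0.44 to 0.94 with any 1 library left out. These values rest on 152 to 325 reads per library, and annotated exons of 4 other genes overlap those of *Foxp3*. *Il2ra*, which encodes CD25, the interleukin 2 receptor chain that regulatory T cells and group 2 innate lymphoid cells (ILC2) share, had 109 and 80.3 CPM in the AAV-CTRL pools and 97.5 and 103 CPM in the AAV-mVEGF-C pools (log2 fold change 0.09, standard error 0.19). *Ikzf2*, which encodes Helios, was between 44.1 and 48.7 CPM in all libraries. Neither separated the groups.

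Relative to the reads of *Cd3d*, *Cd3e*, and *Cd3g* in the same library, *Foxp3* had 4.84 and 3.95 reads per 100 CD3 reads in AAV-CTRL and 5.53 and 6.11 in AAV-mVEGF-C. The mean was 4.40 ± 0.63 (SD, n = 2 pools) against 5.82 ± 0.413 (p = 0.333 by a two-sided exact permutation test, which cannot go lower with these pools, and 0.524 after Benjamini-Hochberg adjustment over 11 genes). *Ctla4* had 17.0 and 10.4 per 100 in AAV-CTRL and 26.2 and 18.1 in AAV-mVEGF-C. *Tigit* had 4.21 and 4.13 in AAV-CTRL and 4.94 and 4.78 in AAV-mVEGF-C. These 3 genes were higher in both treated pools on this scale (27.3% of the 11 genes, against 5.36% of all tested genes). *Il2ra* (82.6 and 71.8, then 64.8 and 71.6), *Ikzf2* (37.0 and 39.4, then 30.5 and 32.6), *Ifng*, and *Cd69* were lower in both (36.4%, against 41.1% of all genes), and *Icos*, *Pdcd1*, *Tcf7*, and *Il7r* overlapped. With TPM in place of reads, *Foxp3* was higher (1 gene, 9.09%, against 4.94% of all genes), *Il2ra*, *Ikzf2*, and *Cd69* were lower (27.3%, against 45.7%), and the groups overlapped for *Ctla4*, *Tigit*, and *Ifng*. *Tcf7* was the most even, at 48.7 to 54.0 per 100 over the 4 libraries. CD3 reads can also come from NK T cells and innate-like T cells, so this ratio does not count regulatory cells.

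**Figure D3:**
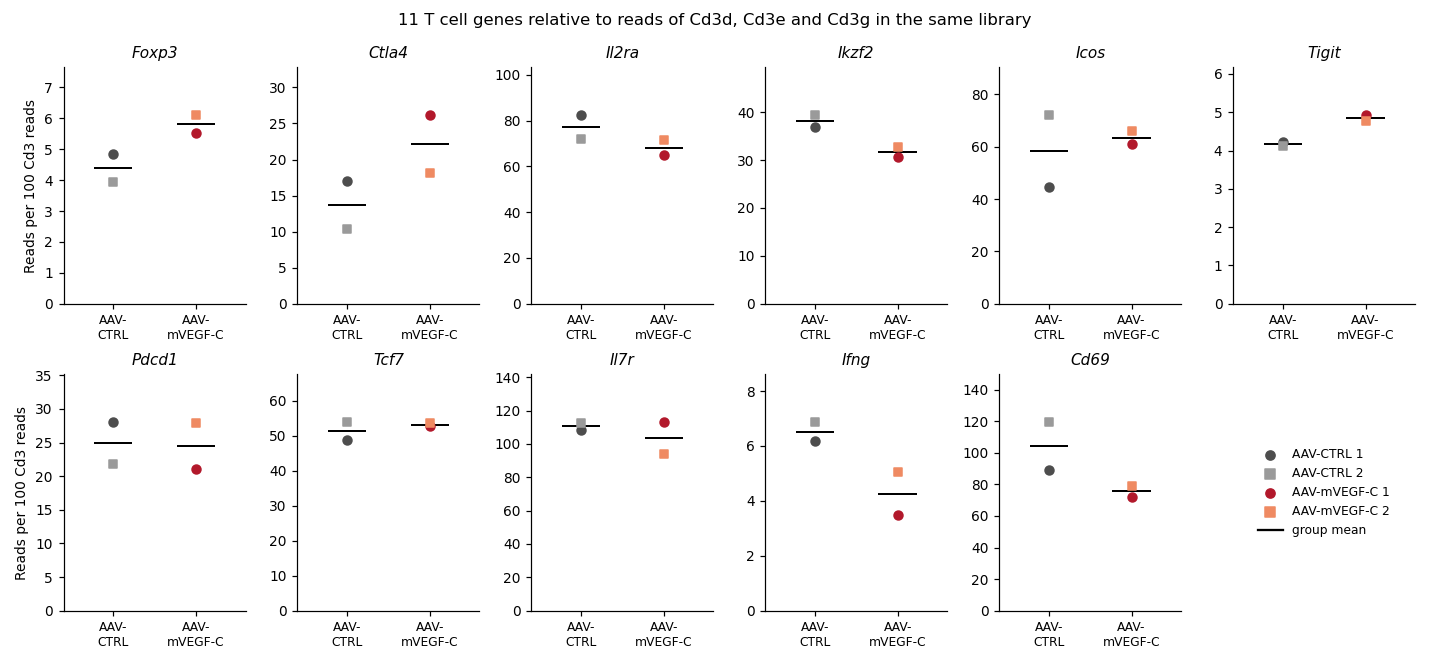
Reads of 11 T cell genes per 100 reads of *Cd3d*, *Cd3e*, and *Cd3g* in the same library, 1 point per pool with the group mean as a line and each axis starting at 0. *Foxp3*, *Ctla4*, and *Tigit* lie higher in both AAV-mVEGF-C pools, *Il2ra*, *Ikzf2*, *Ifng*, and *Cd69* lie lower, and *Tcf7* stays between 48.7 and 54.0.

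All 7 lineage and memory genes had a log2 fold change above 0 (median 0.31, and 0.18 with 6 above 0 in TPM), and in 6 of them both treated pools lay above both controls in CPM (16.8% of all tested genes). In TPM this held for 1, *Tcf7* (8.92% of all genes), while *Thy1* was lower and the other 5 overlapped. *Tcf7*, which encodes TCF-1, a factor of naive and memory T cells that is also needed for innate lymphoid cells, had 64.1 and 60.4 CPM in the AAV-CTRL pools and 79.3 and 77.5 CPM in the AAV-mVEGF-C pools. The groups were apart in both units. The log2 fold change was 0.33 (standard error 0.15; unadjusted p = 0.0662), from 0.30 to 0.36 with any 1 library left out. *Bcl11b*, the factor that commits precursors to the T lineage and is also used by ILC2, had 39.0 and 65.0 CPM in the AAV-CTRL pools and 80.2 and 76.1 CPM in the AAV-mVEGF-C pools. Its log2 fold change was 0.59 (standard error 0.26; unadjusted p = 0.0617). It was 0.25 without AAV-CTRL 1 and 1.01 without AAV-CTRL 2.

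*Satb1*, a chromatin organizer of T cells, had a log2 fold change of 0.31 (standard error 0.16), and *Tox*, a factor of T cell development and exhaustion, one of 0.35 (standard error 0.20). *Il2rb*, the beta chain shared by the receptors for interleukins 2 and 15, was at 0.23 (standard error 0.17). *Il7r*, the interleukin 7 receptor chain that memory T cells and ILC2 carry, had 142 and 126 CPM in the AAV-CTRL pools and 171 and 136 CPM in the AAV-mVEGF-C pools (log2 fold change 0.19, standard error 0.18, and 0.03 without AAV-mVEGF-C 1). AAV-mVEGF-C 2 lay between the controls. *Thy1* had 99.4 and 119 CPM in the AAV-CTRL pools and 123 and 135 CPM in the AAV-mVEGF-C pools (log2 fold change 0.24, standard error 0.17, and 0.09 without AAV-CTRL 1). In TPM the order of *Thy1* turned, with 76.5 and 77.2 in AAV-CTRL and 73.6 and 68.8 in AAV-mVEGF-C, so its direction depends on the unit.

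The 3 effector and activation genes all had a log2 fold change below 0 (median -0.17, and -0.32 without AAV-CTRL 1 or -0.06 without AAV-CTRL 2, with 1 above 0), and each estimate was close to its standard error or within it. *Cd69* had 117 and 134 CPM in the AAV-CTRL pools and 109 and 114 CPM in the AAV-mVEGF-C pools (log2 fold change -0.17, standard error 0.16). *Ifng*, the cytokine interferon γ, had 8.12 and 7.71 CPM in the AAV-CTRL pools and 5.22 and 7.29 CPM in the AAV-mVEGF-C pools (log2 fold change -0.34, standard error 0.31, and -0.11 without AAV-mVEGF-C 1). In CPM both genes were lower in both treated pools, but the TPM of *Ifng* were 6.03 and 6.28 in AAV-CTRL and 5.80 and 9.99 in AAV-mVEGF-C, a log2 difference of 0.27. *Tbx21*, which encodes T-bet, the factor that drives interferon γ in helper T cells and NK cells, had 12.7 and 20.5 CPM in the AAV-CTRL pools and 13.6 and 18.8 CPM in the AAV-mVEGF-C pools. The controls enclosed the treated pools.

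The genes around these members were read from 5 further lists, and in TPM the medians of these lists were lower than in CPM. Of 19 other genes of T cell signaling, 16 had a log2 fold change above 0 (median 0.12, 0.23 without AAV-CTRL 2, and -0.0091 in TPM, with 9 above 0). In that list 1 gene had an unadjusted p under 0.05 in edgeR (5.26%, against 2.64% of all tested genes). This was *Cd5*, a surface receptor that dampens receptor signals, with 15.6 and 18.7 CPM in the AAV-CTRL pools and 31.6 and 21.8 CPM in the AAV-mVEGF-C pools (log2 fold change 0.64, standard error 0.25; unadjusted p = 0.039). Of 13 other genes of regulatory T cells, 9 were above 0 (median 0.24, 0.01 with 7 above 0 without AAV-CTRL 1, and 0.03 in TPM) and 0 had an unadjusted p under 0.05 in edgeR. The 2 with the lowest p in that list were *Ccr8*, a chemokine receptor of regulatory T cells and ILC2 (log2 fold change 0.56, standard error 0.24), and *Tnfrsf1b*, the second receptor for TNF (0.30, standard error 0.18).

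Of 16 other genes of naive and memory T cells, 7 were above 0 and 9 below (median -0.01, from -0.17 to 0.10 with 1 control library left out, and -0.13 in TPM). *Id3*, an inhibitor of E proteins, had 13.4 and 15.6 CPM in the AAV-CTRL pools and 6.78 and 9.78 CPM in the AAV-mVEGF-C pools (log2 fold change -0.81, standard error 0.28; unadjusted p = 0.028). *Dapl1*, a gene of naive T cells, had 1.83 and 0.669 CPM in the AAV-CTRL pools and 0.23 and 0.41 CPM in the AAV-mVEGF-C pools (log2 fold change -1.96, standard error 0.97). Both were lower in both treated pools. Of 15 other helper and effector genes, 8 were above 0 (median 0.11, 0.02 without AAV-CTRL 2, and -0.08 in TPM, with 7 above 0). In that list 1 gene had an unadjusted p under 0.05 in edgeR (6.67%, against 2.64% of all tested genes). This was *Il17a*, a cytokine of type 17 lymphocytes, with 5.97 and 1.34 CPM in the AAV-CTRL pools and 22.1 and 7.35 CPM in the AAV-mVEGF-C pools (log2 fold change 2.00, standard error 0.79; unadjusted p = 0.045). The adjusted p was 0.999 for each of these genes.

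Of 18 ligands of the member receptors, 15 were tested and 12 were above 0 (median 0.19, from 0.13 to 0.38 with any 1 library left out, and 0.04 in TPM, with 8 above 0). *Cd80*, the ligand that CD28 and CTLA-4 share on antigen-presenting cells, had 14.7 and 13.3 CPM in the AAV-CTRL pools and 24.9 and 24.3 CPM in the AAV-mVEGF-C pools (log2 fold change 0.81, standard error 0.19; unadjusted p = 0.005). *Pvr*, the ligand of TIGIT, had 36.4 and 41.5 CPM in the AAV-CTRL pools and 52.5 and 53.0 CPM in the AAV-mVEGF-C pools (log2 fold change 0.44, standard error 0.16; unadjusted p = 0.036). Both were higher in both treated pools, and neither passed the adjusted threshold.

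**Figure D4:**
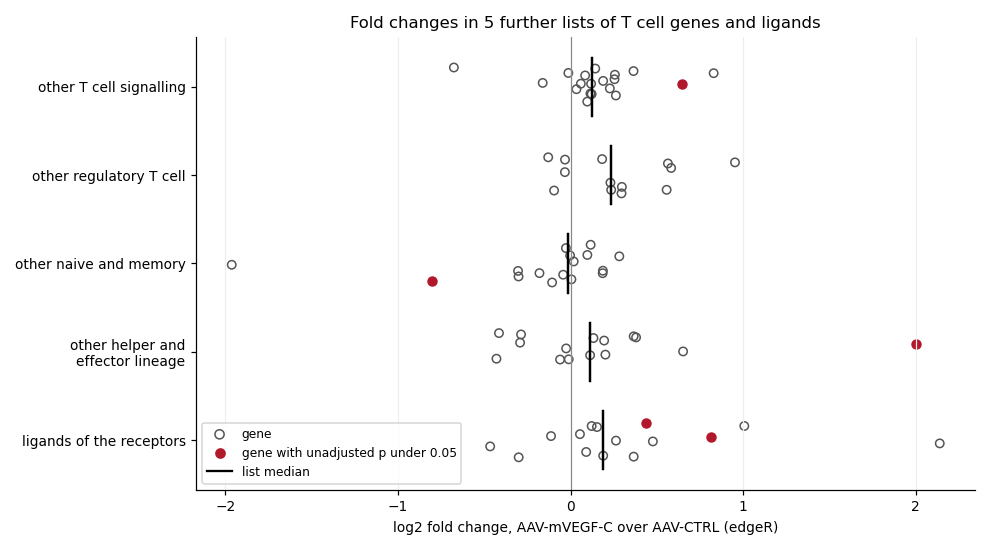
log2 fold change (AAV-mVEGF-C over AAV-CTRL) of each tested gene in 5 further lists, with the list median as a black line and genes with an unadjusted p under 0.05 in red. The medians lie between -0.01 and 0.24, and the red points are *Cd5*, *Id3*, *Il17a*, *Cd80*, and *Pvr*.

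Marker genes of 9 cell types were read beside these genes, each with an adjusted p of at least 0.999 in edgeR. All 9 T cell markers, of which 4 are members, had a log2 fold change above 0 (median 0.39, and 0.22 without AAV-mVEGF-C 1 or in TPM, where 7 were above 0), and their sum was 258 and 244 CPM in AAV-CTRL and 334 and 323 CPM in AAV-mVEGF-C. The lowest unadjusted p among them were those of *Trbc1* (log2 fold change 0.70, standard error 0.20) and *Trac* (0.88, standard error 0.26), constant genes of the receptor, while *Trbc2* was at 0.02. Of 10 NK cell markers, 9 were below 0 (median -0.54, and -0.34 without AAV-mVEGF-C 1), with sums of 110 and 105 CPM in AAV-CTRL and 73.7 and 89.3 CPM in AAV-mVEGF-C. Of 10 ILC2 markers, 6 were above 0 (median 0.20), with sums of 621 and 752 CPM, then 713 and 792 CPM. The ILC2 median turned to -0.06 without AAV-CTRL 1, with 3 above 0, and was 0.58 without AAV-CTRL 2. The members that NK cells or ILC2 share with T cells include *Il2rb*, *Tbx21*, *Ifng*, *Cd2*, *Il7r*, *Il2ra*, *Bcl11b*, *Tcf7*, *Icos*, and *Thy1*. These names are examples and not a full list, and the part of NK cells and ILC2 in the members' values was not tested.

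Of 10 B cell precursor markers 7 were below 0 (median -0.60), and of 10 mature B cell markers 9 (median -0.46). The mature B cell sum was 762 CPM in AAV-CTRL 2 and 332 to 389 CPM elsewhere. Without AAV-CTRL 2 the mature B cell median turned to 0.17, with 9 above 0, against 0.13 over all genes in that fit. The median of the B cell precursors was -0.05 without AAV-CTRL 2 and -1.22 without AAV-CTRL 1. Mast cell and basophil markers (9 of 10 below 0, median -0.51, and -0.31 without AAV-CTRL 1) summed to 2620 and 1854 CPM in AAV-CTRL and to 1670 and 1759 CPM in AAV-mVEGF-C. Fibroblast and stromal markers (9 of 10 below 0, median -0.89, and -0.49 without AAV-CTRL 2) summed to 1523 and 1782 CPM and then to 1178 and 1279 CPM, although these cells lack CD45. Neutrophil markers summed to 26897 CPM in AAV-CTRL 1, against 12588 to 18074 CPM in the others, and macrophage and dendritic cell markers to 1396 to 2018 CPM with the groups overlapping. The sums separated the groups for mast cells and basophils and for fibroblasts, but not for the other lists in this paragraph. In the list of B cell precursors 1 marker, *Vpreb1*, was at 0 reads, in AAV-CTRL 1, and no marker of the other 8 lists was at 0 in any library. The part of each of these cell types in the members' values was not tested.

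**Figure D5:**
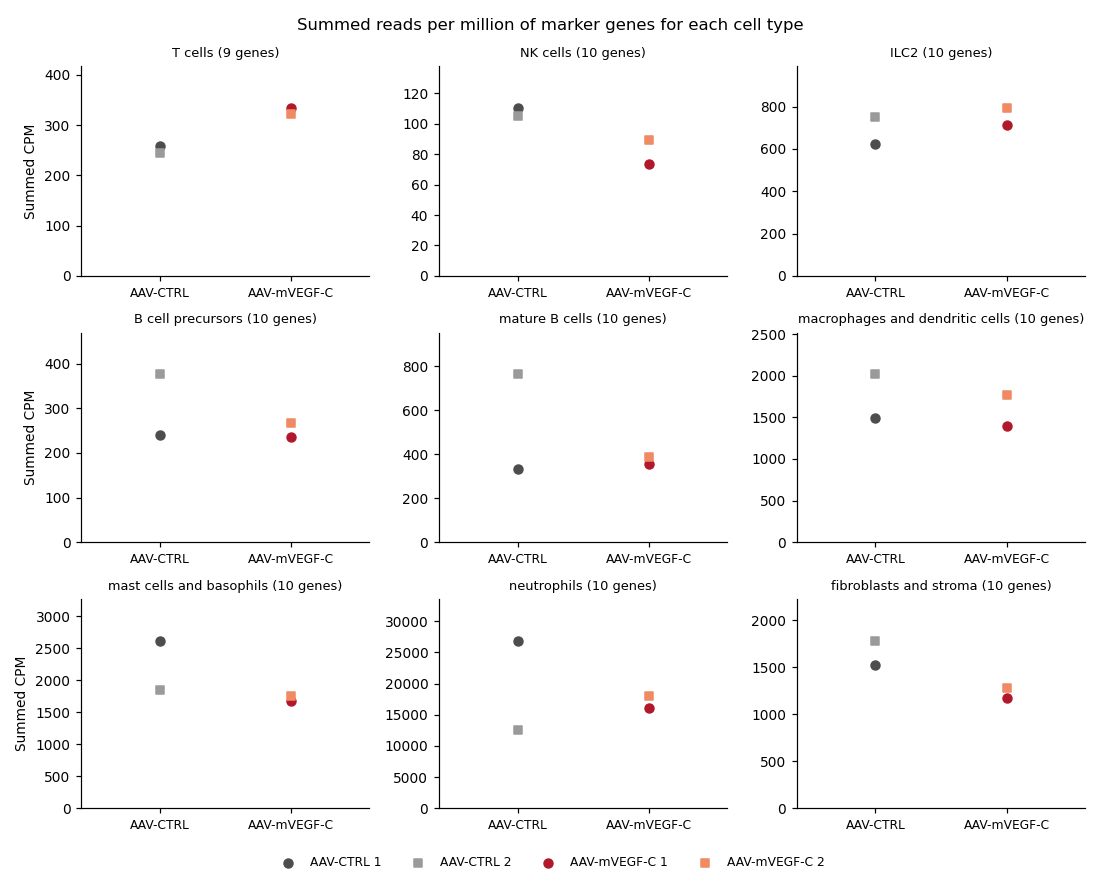
Summed CPM of the marker genes of 9 cell types in each library, with each axis starting at 0. The T cell markers lie higher in both AAV-mVEGF-C pools (334 and 323, against 258 and 244), the NK cell, mast cell, and fibroblast markers lie lower in both, and the neutrophil markers of AAV-CTRL 1 lie at 26897.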

How the data were processed

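Leukocytes sorted by CD45 from the dura of AAV-CTRL and AAV-mVEGF-C mice were measured as 2 bulk libraries per group (stranded total RNA kit for picogram inputs). The authors deposited estimated counts per gene, which need not be whole (8.18% had decimals, including values of 4 members), without normalization, and they were rounded here. The authors also deposited TPM values of the same genes, which sum to about 1000000 per library. The submitters' processing notes name FastQC, Trimmomatic, DRAGEN, Picard, and build mm10, without versions or roles, and the annotation is not given in the sources used here. GENCODE M21 (GRCm38), which holds 54349 of the versioned identifiers, gave the coordinates of 34 members.

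The main test was edgeR 4.0.16 (R 4.3.3), glmQLFit with defaults, TMM scaling, filterByExpr, no covariate, all 4 libraries, and Benjamini-Hochberg adjustment with a threshold of 0.05. The common dispersion came to 0.173, and a standard error is the log2 fold change divided by the square root of F. A quotient per library was compared with an exact permutation test (scipy 1.17.1). Alternatives were DESeq2 1.42.0 (named in the study's methods), limma-voom (limma 3.58.1), RLE scaling, other filters, a replicate block, limma on log2(TPM + 1) and log2(TPM + 0.1), and each library left out. A crossed block and edgeR's likelihood ratio test were added after seeing the data. The scripts were tested on simulated data.

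The members, the lists, and the rule for named genes were chosen with earlier results of these data known. Every member is accounted for. Values per library are given for a set of core genes (*Cd3d*, *Cd3e*, *Cd3g*, *Cd247*, *Lck*, *Zap70*, *Foxp3*, *Ctla4*, *Il2ra*, *Icos*, *Pdcd1*, *Havcr2*, *Tcf7*, *Il7r*, *Thy1*, *Cd69*, *Ifng*, and *Tbx21*), for members with an unadjusted p under 0.05, and for the 2 largest log2 fold changes in each direction. From each other list the 2 tested genes with the lowest p are named, except that 2 genes of these lists are not reported here and were left out of the counts, so 1 gene is named from each of their lists. Of the marker lists, this was done for T cells only. *Bcl11b*, *Cd48*, *Trbc2*, and *Vpreb1* were added outside this rule, with their values known. Annotated exons of other genes overlap those of 13 members. Promoters were RefSeq windows, searched for 3 motifs of 6 bases.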

Additional observations from a re-analysis of the deposited data

How the results depend on the processing

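With 2 pools per group, a single library decides many of these values. The members' median log2 fold change of 0.24 was 0.22 to 0.25 under DESeq2, limma-voom, RLE scaling, both filters, both blocks, and the likelihood ratio test, 0.13 with TPM + 1, and 0.14 with TPM + 0.1. With 1 library left out it ranged from 0.16 to 0.29. The median of all tested genes was -0.08 and -0.11 in the TPM fits, 0.25 in DESeq2 and 0.22 without a filter (both over 40674 genes), and 0.13 without AAV-CTRL 2.

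Against 0 genes in the main test, the adjusted threshold was passed by 77 genes in DESeq2, 268 without a filter, and 2 to 2058 with 1 library left out. It was passed by 0 genes in limma-voom, with RLE scaling, with at least 10 reads in every library, and in TPM. The likelihood ratio test (56 genes) and a crossed replicate block (54 genes), both chosen after seeing the data, called 0 members. Of the members, *Ctla4* was called without a filter (1 member, adjusted p = 0.0199), and 0 to 3 were called with 1 library left out. These were *Ctla4* without AAV-CTRL 1 (2.86% of the members, against 1.85% of all genes) and *Cd2*, *Icos*, and *Bcl11b* without AAV-CTRL 2 (8.57%, against 9.19%). The replicate block, by the experiment numbers of the labels, gave 11 genes and 0 members. The column labels number the pools differently. Deviations of same-numbered libraries from their group means correlated at -0.13 and those of the crossed pairing at 0.13, which with 2 pools per group are the same value with opposite signs, so the numbers were not taken to pair the pools.

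Of the 35 members, 23 kept their direction under all 14 alternatives and 12 did not. In TPM (+ 1, then + 0.1) the log2 difference was reversed for *Cd3d* (-0.038, -0.041), *Lck* (-0.17, -0.18), *Havcr2* (-0.0053, -0.0025), *Ikzf2* (-0.064, -0.072), *Thy1* (-0.11, -0.11), and *Ifng* (0.27, 0.30). *Ikzf2* was also reversed without a filter (-0.016), and *Tbx21* in limma-voom (0.0018). With 1 library left out, 10 members were reversed. Their ranges were -0.034 to 0.31 for *Cd3d*, -0.047 to 0.18 for *Lck*, -0.012 to 0.75 for *Cd6*, -0.28 to 0.50 for *Cd27*, -0.17 to 0.11 for *Tnfrsf18*, -0.030 to 0.55 for *Pdcd1*, -0.27 to 0.54 for *Havcr2*, -0.10 to 0.31 for *Il2ra*, -0.057 to 0.059 for *Ikzf2*, and -0.36 to 0.36 for *Tbx21*. The cause was not tested.

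The count of 21 members without overlap was 21 with RLE scaling and 16 in TPM. The difference in *Foxp3* reads per 100 CD3 reads was 1.43, and from 0.982 to 1.87 with 1 library left out. The deposited estimates limit genes whose exons overlap those of others, since how reads were divided is not given in the sources used here.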
